A study of Mus musculus with 12 samples.

Results

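The MYC, MAX and MXD network was followed in PUER cells through the 10 genes Myc, Mycn, Mycl, Max, Mxd1, Mxd3, Mxd4, Mxi1, Mnt and Mlx. Members were every array feature whose platform annotation gave exactly 1 gene symbol, that of a network gene. This gave 24 probe sets for 10 genes on the Mouse Genome 430 2.0 arrays, of 18193 genes named there, and 9 transcript clusters for 9 genes on the Mouse Exon 1.0 ST arrays, of 14807. Mxi1 had no such cluster on the exon arrays. PUER is a line of mouse myeloid progenitors that lack their own PU.1. The line was given a fusion of PU.1 with the ligand-binding region of the estrogen receptor, which 4-hydroxytamoxifen (OHT) activates. All 4 groups grew with 5 ng/ml interleukin-3 (IL-3), serum and puromycin. The 0 h groups had no OHT and the 24 h groups had 100 nM OHT for 24 h, with 3 arrays per group on each array design, 12 arrays in all. It is 1 cell line, and the labels do not say whether the 3 arrays of a group were grown as separate cultures, and the p-values cover no more than the spread among these arrays, which may be technical.

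MYC proteins bind DNA as heterodimers with MAX at E-boxes, for which CACGTG is the core sequence, and activate genes of growth, ribosome assembly and metabolism. MXD proteins, MXI1 and MNT also pair with MAX at E-boxes but recruit SIN3 corepressor complexes, and so oppose MYC. MLX is a MAX-like partner that pairs with some MXD proteins, MNT and the glucose-responsive factors MLXIP (MondoA) and MLXIPL (ChREBP). In blood cells MYC drives progenitor growth, and MXD proteins are known to increase as myeloid cells mature.

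Of the 9 members with a promoter sequence, 4 carried CACGTG within 250 bases before to 50 bases after a transcription start. The sequences are those of RefSeq on GRCm38.p6, where 9 of the 10 members matched by symbol with 11 windows; Myc was the other. CACGTG reads the same on both strands. Of all 32851 windows, 7.15% held it, and 4 of the 11 member windows (36.4%) did. The E-boxes with 12 bases on each side, 5′ to 3′ on the gene's own strand and with CACGTG in capitals, are shown because these are the letters that the network's own proteins read.
Max: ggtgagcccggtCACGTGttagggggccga
Mxd4: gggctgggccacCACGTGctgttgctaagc
Mnt: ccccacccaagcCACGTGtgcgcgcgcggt
Mlx: ggtgggttggatCACGTGactgagcctcgc
Counted from the start site, the first base of CACGTG lay at position -3 in Max, -219 in Mxd4, -123 in Mnt and -40 in Mlx. Mxd4 and Mlx were the 2 of these genes that were called on both array designs, in opposite directions from each other, and their whole windows follow. The Mxd4 window is chr5:34187661-34187960 on the minus strand and the Mlx window is chr11:101087040-101087339 on the plus strand.
Mxd4: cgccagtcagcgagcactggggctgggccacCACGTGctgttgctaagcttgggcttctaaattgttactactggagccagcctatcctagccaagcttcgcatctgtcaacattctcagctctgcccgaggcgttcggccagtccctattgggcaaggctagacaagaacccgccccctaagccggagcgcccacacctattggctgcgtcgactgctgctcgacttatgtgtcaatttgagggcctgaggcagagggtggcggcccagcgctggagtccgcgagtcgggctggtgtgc
Mlx: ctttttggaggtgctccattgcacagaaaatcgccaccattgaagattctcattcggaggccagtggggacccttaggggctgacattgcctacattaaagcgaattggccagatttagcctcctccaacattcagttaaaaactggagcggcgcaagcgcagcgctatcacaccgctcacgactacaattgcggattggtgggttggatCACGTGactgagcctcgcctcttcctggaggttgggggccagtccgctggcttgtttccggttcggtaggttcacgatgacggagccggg
GAGGAA, a sequence that ETS factors such as PU.1 bind, was searched on both strands and lies in 28.3% of all windows. It was in 3 of the 11 member windows, 1 each of Max, Mxi1 and Mnt, and in neither window printed in full. In no member window did the 2 motifs overlap. A match is a run of letters, not a measured binding site.

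Before the results, the labels of the designs have to be set side by side. Over 13356 genes on both designs, the log2 changes from 0 h to 24 h, as labelled, correlated at r = -0.861 across genes, which are not independent replicates. Of 3770 genes called on both, 3713 were called in opposite directions. On the 430 arrays labelled 24 h, 5 of 5 genes listed as macrophage markers were called higher (Adgre1, Csf1r, Itgam, Cd68 and Ptprc). There 3 of 5 progenitor markers (Kit, Myb and Gfi1) were called lower. On the exon arrays labelled 24 h the same 5 genes were called lower and the same 3 progenitor markers higher. Ptprc, which changed most of the 5 (9.38 and -6.90), encodes CD45 and is not particular to macrophages. The 2 tables were made separately and each was tested alone. Directions are given as the arrays are labelled. If the exon labels were exchanged, every exon change below would turn its sign, and exon counts of genes called higher and lower would trade places. The labels give the same kind of sense-strand, whole-transcript labelling for both designs, whereas 430 2.0 arrays are usually hybridised with antisense RNA. Which design carries the right labels was not tested. Of 4 mast cell and basophil markers, 2 were called lower on the 430 arrays (Mcpt8 by -1.48 and Ms4a2 by -0.42) and 1 higher on the exon arrays (Mcpt8 by 1.36). Their mean log2 signal was 6.12 to 6.17 at 0 h and 5.72 to 5.83 at 24 h on the 430 arrays, and 3.65 to 3.80 and 4.11 to 4.21 on the exon arrays. Of 3 erythroid markers 1 was called higher on the 430 arrays (Epor, 0.38), as was 1 of 2 T-cell markers (Cd4, 0.36), and neither list had a call on the exon arrays. Neither of the 2 B-cell markers measured was called on either design. The part of these cell types in the network's values was not tested.

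On the 430 arrays, 6 of the 10 network genes were called lower at 24 h (Myc, Mycn, Max, Mxd3, Mxi1 and Mlx), 1 was called higher (Mxd4), and Mycl, Mxd1 and Mnt were not called. A call is an adjusted p under 0.05 over all 45037 probe sets (limma, Benjamini-Hochberg), and a gene with several probe sets is represented by its brightest. Of all genes 26.1% were called lower, 26.0% higher and 52.1% in either direction, and nothing particular to the network is read from its 7 calls. The groups did not overlap in 9 of the 10 genes, beside 61.0% of all genes. These are bulk RNA values, in which fewer cells of a kind and less RNA per cell cannot be told apart. The median log2 change of the 10 genes was -0.38, beside 0.06 over all genes. With a change of at least 1 on the log2 scale also required, 9.76% of all genes were called, and Myc, Mxi1 and Mlx remained of the network.

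On the exon arrays, 2 of 9 network genes were called higher at 24 h (Myc and Mlx) and 2 lower (Mxd4 and Mnt). Of all genes there 19.3% were called higher, 10.8% lower and 30.1% in either direction. The groups did not overlap in 6 of the 9 network genes, beside 47.2% of all genes. With the minimum change of 1 added, 8.66% of all genes were called, and Myc and Mlx remained of the network. The median log2 change of the 9 genes was -0.02, beside 0.01 over all genes. Myc, Mlx and Mxd4 were called on both designs, each in opposite directions as labelled.

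**Figure D1:**
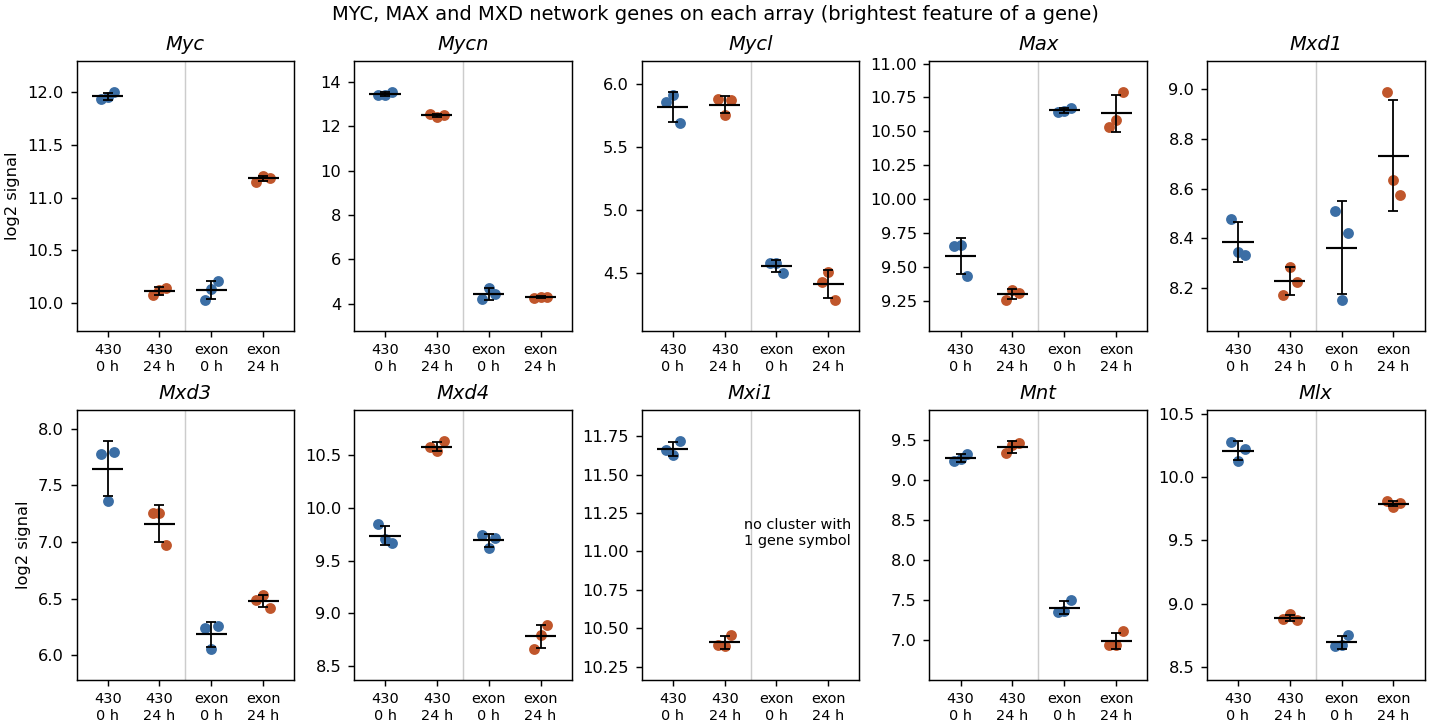
Log2 signal of each network gene on the 12 arrays, with 1 panel per gene; points are arrays, long bars are group means and error bars are the SD of 3 arrays. Levels of the 2 designs were made separately and cannot be compared with each other. Myc, Mxd1, Mxd3, Mxd4, Mnt and Mlx separate the groups on both designs, in opposite directions as labelled. Of these, Myc, Mxd4 and Mlx were called on both.

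Among the MYC proteins, Myc, the broadly used growth regulator, changed most. On the 430 arrays its log2 signal was 11.93, 11.95 and 12.00 at 0 h and 10.08, 10.13 and 10.15 at 24 h. The groups were far apart beside their spread, with means of 11.96 ± 0.0336 and 10.12 ± 0.0355 (SD, n = 3). The difference was -1.84 ± 0.0614 (SE) on the log2 scale, 3.59-fold lower at 24 h (limma adjusted p = 5.86e-08), and it rests on 1 probe set, 1424942_a_at. The exon cluster of Myc read 10.04, 10.14 and 10.21 at 0 h and 11.15, 11.20 and 11.19 at 24 h. All 3 arrays labelled 24 h were above all 3 labelled 0 h, by 1.05 ± 0.0828 on the log2 scale or 2.08-fold (limma adjusted p = 0.00052).

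Mycn, the MYC protein best known from neural and stem cells, gave readings that differed between its own probe sets. The brightest, 1425923_at, read 13.42, 13.40 and 13.55 at 0 h and 12.55, 12.42 and 12.52 at 24 h, without overlap, a change of -0.96 ± 0.0709 (SE; limma adjusted p = 6.57e-06). Probe set 1425922_a_at read 6.04, 5.74 and 5.89 at 0 h and 5.87, 6.11 and 5.95 at 24 h. Its groups overlapped and it was not called (change 0.09, limma adjusted p = 0.49). Probe set 1417155_at read 5.29, 5.38 and 5.41 against 5.52, 5.62 and 5.58, and was called higher (change 0.21, limma adjusted p = 0.0306). That call ended with quantile normalization (limma adjusted p = 0.172) and with array medians removed (0.126). The exon cluster of Mycn, below the median feature level, read 4.20, 4.73 and 4.41 at 0 h and 4.26, 4.32 and 4.31 at 24 h. Those groups overlapped, and the change of -0.15 ± 0.144 was not called (limma adjusted p = 0.532). As the mean of its probe sets Mycn changed by -0.22, still called (limma adjusted p = 0.00824). The call of Mycn as lower at 24 h therefore rests on 1 of 4 features over both designs, and the other 3 gave no call in that direction.

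Mycl, the third MYC protein, lay below the median feature level in all 4 of its features. Its brightest probe set on the 430 arrays read 5.85, 5.91 and 5.68 at 0 h and 5.88, 5.76 and 5.87 at 24 h, with overlap and a change of 0.02 ± 0.079 (limma adjusted p = 0.866). Its dimmest, 1422088_at, read 3.72, 3.52 and 3.70 against 4.13, 4.01 and 4.02 and was called higher (0.41 ± 0.0769, limma adjusted p = 0.0023). The third, 1434777_at, changed by 0.27 (limma adjusted p = 0.0318), a call that ended with quantile normalization (0.141) and with array medians removed (0.0847). As the mean of its probe sets Mycl was called higher (0.23, limma adjusted p = 0.00985). The exon cluster of Mycl read 4.58, 4.59 and 4.50 against 4.43, 4.51 and 4.29, which overlapped, and it was not called (-0.14 ± 0.0908, limma adjusted p = 0.34).

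Max, the shared partner of the MYC and MXD proteins, differed little. On the 430 arrays it read 9.65, 9.66 and 9.43 at 0 h and 9.26, 9.33 and 9.30 at 24 h. The groups did not overlap, though one 0 h array lay close to the 24 h arrays, and the change of -0.29 ± 0.0795 (SE), 1.22-fold lower, was called (limma adjusted p = 0.0173). The call ended without 0 h array 1 (limma adjusted p = 0.0577), 0 h array 2 (0.0637) or 24 h array 1 (0.0566), and with quantile normalization (0.108). The exon cluster of Max read 10.64, 10.65 and 10.67 against 10.53, 10.58 and 10.79, with overlap. The change of -0.02 ± 0.0962 was not called (limma adjusted p = 0.912).

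Of the MAX-bound repressors, Mxi1 changed most on the 430 arrays. MXI1 is an MXD-family antagonist of MYC. Probe set 1450376_at read 11.66, 11.62 and 11.72 at 0 h and 10.39, 10.38 and 10.46 at 24 h, a change of -1.26 ± 0.0633 (SE) or 2.39-fold lower (limma adjusted p = 6.46e-07). Its other probe set, 1425732_a_at, read 10.49, 10.43 and 10.52 against 8.95, 8.90 and 8.94 and changed by -1.55 ± 0.0622 (limma adjusted p = 1.68e-07). Both were lower on every 24 h array than on any 0 h array. There is no exon value to set beside them.

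Mxd4, an MXD-family antagonist of MYC, was the one network gene called higher by its brightest probe set at 24 h on the 430 arrays. Its brightest probe set, 1434378_a_at, read 9.84, 9.71 and 9.66 at 0 h and 10.58, 10.54 and 10.63 at 24 h. The groups were clearly apart, by 0.85 ± 0.0716 (SE), 1.80-fold (limma adjusted p = 1.54e-05). Its other 3 probe sets were also called higher, by 0.82, 0.44 and 0.45 (limma adjusted p = 0.000119, 0.00247 and 0.0172); the last, 1422575_at, ended with quantile normalization (0.0505). For Mxd4 the exon values were 9.74, 9.62 and 9.72 at 0 h and 8.66, 8.79 and 8.88 at 24 h. Each array labelled 24 h was below each labelled 0 h, by -0.91 ± 0.0927 or 1.88-fold (limma adjusted p = 0.00119).

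Mxd3, an MXD protein made mainly in dividing cells, was called lower in all 3 of its 430 probe sets. The brightest, 1448878_at, read 7.78, 7.37 and 7.80 at 0 h and 7.26, 7.26 and 6.98 at 24 h, and one 0 h array stood near the 24 h values. Its change was -0.48 ± 0.129 (SE; limma adjusted p = 0.0142), and without 0 h array 3 the call ended (0.0524). The other probe sets changed by -0.37 and -0.49 (limma adjusted p = 0.0144 and 0.00494). Exon values of Mxd3 were 6.24, 6.06 and 6.25 against 6.49, 6.53 and 6.42, without overlap but not called (0.30 ± 0.0916, limma adjusted p = 0.0656). There it was called when only features at or above the median level were tested (limma adjusted p = 0.0276) and with gene means (0.0314). Of the proliferation markers, 6 of 6 measured were called lower on the 430 arrays at 24 h, where their mean log2 signal ran from 11.96 to 12.06 at 0 h and from 11.10 to 11.16 at 24 h. Of the 5 measured on the exon arrays 4 were called higher, with mean signals of 8.78 to 8.89 at 0 h and 9.65 to 9.74 at 24 h. Their part in the Mxd3 values was not tested.

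Mxd1, the MXD protein best known from myeloid maturation, was not called by its brightest feature on either design. Probe set 1434830_at read 8.48, 8.35 and 8.34 at 0 h and 8.17, 8.29 and 8.23 at 24 h, without overlap, a change of -0.16 ± 0.0697 (SE; limma adjusted p = 0.0978). It was called with array medians removed (limma adjusted p = 0.0355), among features at or above the median level (0.043) and as a gene mean (0.0299). Of its other probe sets, 1455104_at was called lower (-0.27, limma adjusted p = 0.021), not so with quantile normalization (0.245), and 1422002_at was not called (-0.07, 0.549). Exon values of Mxd1 were 8.51, 8.16 and 8.42 against 8.99, 8.63 and 8.57. The groups did not overlap, but the arrays within each were spread widely, and the change of 0.37 ± 0.153 was not called (limma adjusted p = 0.149).

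Mnt, the broadly present repressor partner of MAX, was called on the exon arrays alone, though a difference between the designs was not tested. There it read 7.35, 7.36 and 7.49 at 0 h and 6.93, 6.93 and 7.10 at 24 h. The groups did not overlap and the change was -0.41 ± 0.0931 (SE), 1.33-fold lower (limma adjusted p = 0.0231). The call ended when any of the 0 h arrays, 24 h array 1 or 24 h array 2 was left out (limma adjusted p from 0.0583 to 0.0853), and with the replicate number as a block (0.0508). Its 430 probe set 1418192_at read 9.24, 9.26 and 9.32 against 9.33, 9.44 and 9.46, a change of 0.14 ± 0.0672 that was not called (limma adjusted p = 0.133) but was with quantile normalization (0.0152). Its second probe set, 1418193_at, gave -0.03 (limma adjusted p = 0.736).

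Mlx, the partner that links the network to glucose-responsive factors, was called in every one of its 3 features. Its brightest 430 probe set, 1425930_a_at, read 10.28, 10.13 and 10.22 at 0 h and 8.88, 8.92 and 8.87 at 24 h, and 1418437_a_at read 10.13, 10.01 and 10.04 against 8.74, 8.78 and 8.70. Both probe sets changed by -1.32 (SE 0.0659 and 0.0655), or 2.50-fold and 2.49-fold lower (limma adjusted p = 6.02e-07 and 5.94e-07). In the exon table Mlx read 8.66, 8.67 and 8.76 at 0 h and 9.81, 9.77 and 9.80 at 24 h. All arrays labelled 24 h were above those labelled 0 h, by 1.09 ± 0.0758 or 2.14-fold (limma adjusted p = 0.000344).

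**Figure D2:**
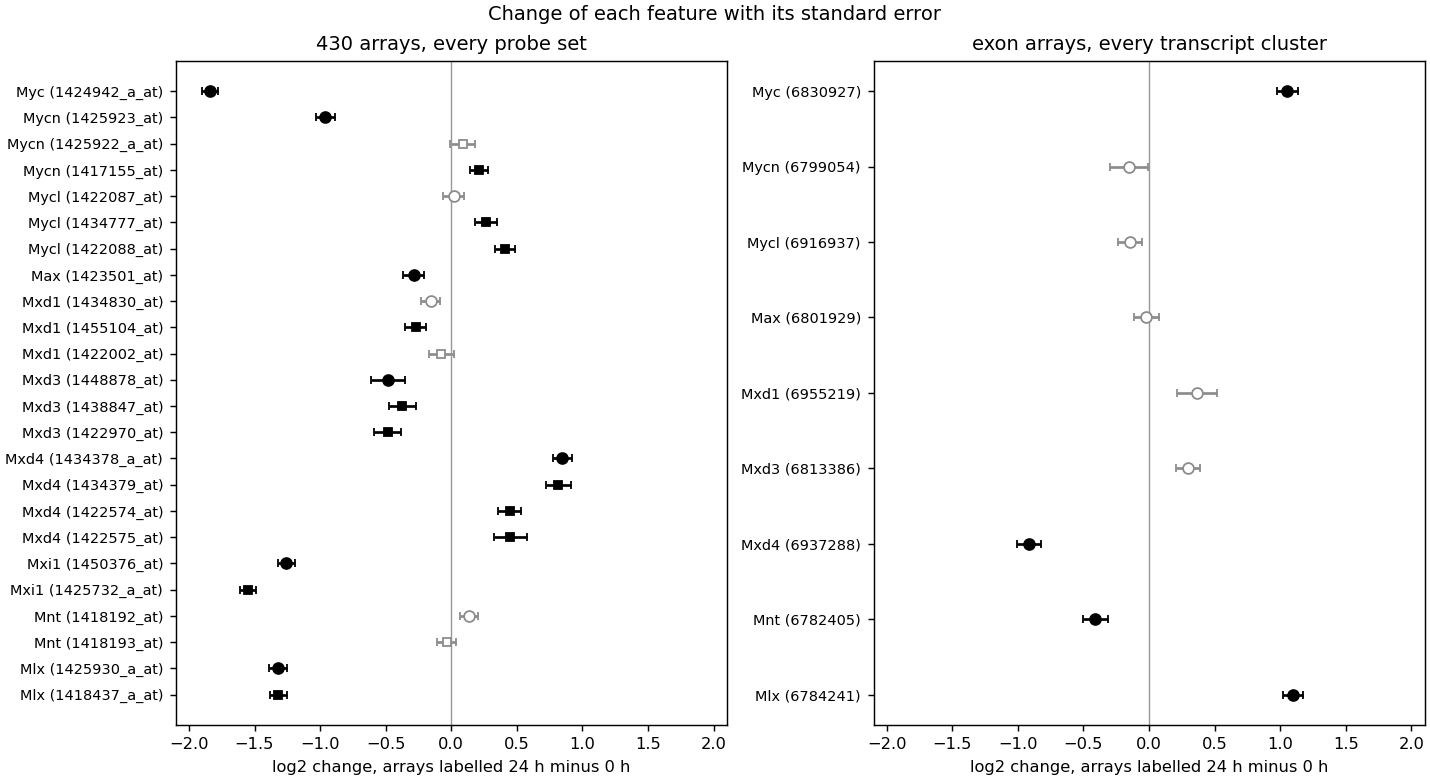
Log2 change (arrays labelled 24 h minus 0 h) of each feature of the network genes with limma's standard error; circles are the brightest feature of a gene, squares the others, and filled black marks passed an adjusted p under 0.05. The probe sets of Mycl, Mxd1, Mxd3, Mxd4, Mxi1 and Mlx each lie on 1 side of 0, while those of Mycn and Mnt lie on both.

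Over every feature, 11 of the 24 probe sets were called lower and 7 higher, beside 23.5% and 22.3% of all probe sets. In 20 of the 24 the 2 groups did not overlap, beside 54.5% of all probe sets. Of the 9 genes measured on both designs, 7 had changes of opposite sign as labelled, beside 74.3% of all genes on both, and Mycn and Max had the same sign without an exon call. In 6 genes (Myc, Mxd1, Mxd3, Mxd4, Mnt and Mlx) the groups did not overlap on either design and went opposite ways, beside 38.5% of all genes on both designs.

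**Figure D3:**
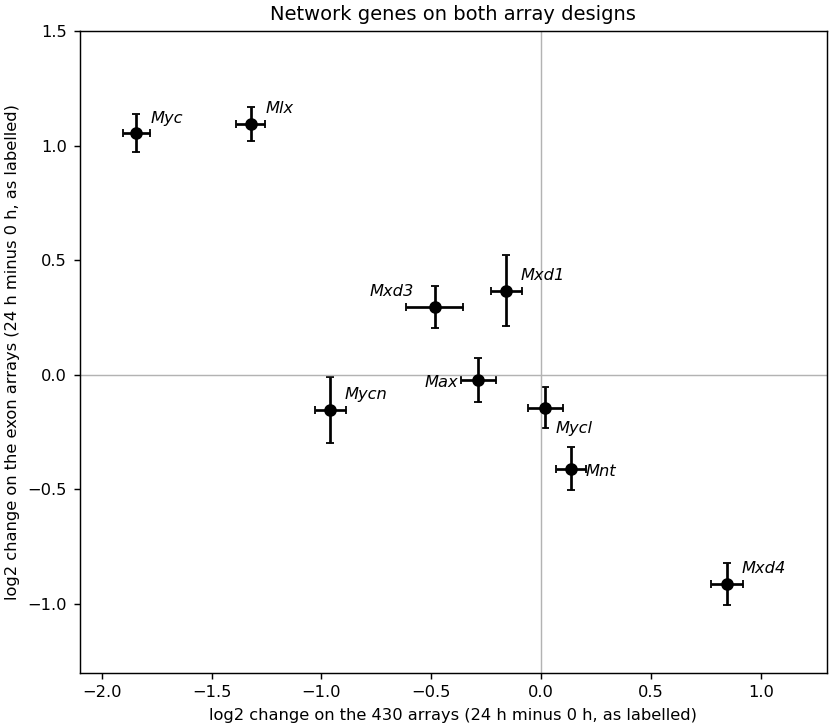
Log2 change on the 430 arrays (horizontal) against that on the exon arrays (vertical) for the 9 network genes on both designs, with standard errors. Myc and Mlx lie at the upper left and Mxd4 at the lower right; Mycn and Max lie below 0 on both axes with exon changes within about 1 standard error of 0.

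The next question is what the genes around the network did, in lists chosen with earlier results of these data known. Their counts are to be read against all genes, of which 26.1% were called lower and 26.0% higher on the 430 arrays, and 10.8% lower and 19.3% higher on the exon arrays. Beyond the members, the list of other E-box factors and SIN3 corepressor parts had 4 of 10 higher (40.0%) and 5 lower (50.0%) on the 430 arrays at 24 h, with a median change of -0.15. The 2 MLX partners went opposite ways: Mlxip changed by 1.12 ± 0.0662 (SE; limma adjusted p = 1.67e-06) and Mlxipl by -1.23 ± 0.097 (9.99e-06). Their exon changes were -1.27 ± 0.0988 and 0.90 ± 0.0937 (limma adjusted p = 0.000507 and 0.00134). Tfap4, an E-box factor reported as a MYC target, changed by -2.26 (430) and 1.45 (exon) (limma adjusted p = 2.56e-08 and 0.000271). The histone deacetylase gene Hdac2 changed by 0.84 on the 430 arrays (limma adjusted p = 4.38e-06). On the exon arrays it changed by -0.61 (0.0471), a call that ended with the replicate block (0.0784) and without any single array other than 24 h array 1 (0.0622 to 0.12). The exon list had 3 of 9 higher (33.3%) and 3 lower (33.3%).

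Of 14 measured MYC cofactors, 10 were called lower (71.4%) and 2 higher (14.3%) at 24 h on the 430 arrays (median -0.42, beside 26.1% and 26.0% of all genes). The helicase subunits Ruvbl2 and Ruvbl1 changed by -2.05 and -0.94 (limma adjusted p = 1.36e-07 and 4.81e-06), the acetyltransferase Kat2a by -1.67 (2.11e-07) and the methyltransferase-complex part Wdr5 by -1.34 (5.35e-07). The exon table had 5 of 13 called higher (38.5%) and 1 lower (7.69%; median 0.16, beside 19.3% and 10.8% of all genes), among them Ruvbl2 at 2.06, Ruvbl1 at 1.01 and Kat2a at 0.94. The lower one was Trrap, a scaffold of acetyltransferase complexes, at -1.03 there and 0.41, called higher, on the 430 arrays; it was chosen after its values were seen. Genes of MYC protein turnover had 8 of 14 lower (57.1%, beside 26.1% of all genes) and 4 higher (28.6%, near the 26.0% of all genes) on the 430 arrays (median -0.32), led by the ubiquitin ligase parts Skp2 (-1.06) and Stub1 (-0.83), the phosphatase subunit Ppp2r5a (-0.54) and the deubiquitinase Usp7 (-0.43). On the exon arrays Skp2 changed by 0.85 and Stub1 by 0.50 (limma adjusted p = 0.00463 and 0.0225), while Ppp2r5a at 0.15 and Usp7 at 0.28 were not called (0.643 and 0.0718). The exon call of Stub1 ended with the replicate block (0.0786), with quantile normalization (0.1) and without any single array other than 0 h array 1 (0.0508 to 0.0694). Of 13 exon clusters 4 were higher (30.8%) and 0 lower (median 0.22). The turnover list mixes ubiquitin ligases with deubiquitinases, so its counts by direction have no single meaning for MYC turnover.

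Of 39 measured genes reported as activated by MYC, 33 were called lower (84.6%, beside 26.1% of all genes) and 1 higher at 24 h on the 430 arrays, with a median change of -1.12 beside 0.06 over all genes. The spermidine synthase Srm changed by -2.43, and Rrp12, Nop56 and Nolc1, which act in ribosome assembly, by -2.27, -1.96 and -1.91 (limma adjusted p between 2.43e-08 and 6.41e-08). The member called higher was the cyclin Ccnd2 (0.50, limma adjusted p = 0.000532), named because it was alone. Among exon clusters 22 of 30 were called higher (73.3%, beside 19.3% of all genes) and 0 lower (median 1.07 beside 0.01 over all genes), with Srm at 1.24, Rrp12 at 1.65, Nop56 at 2.05 and Nolc1 at 1.18. CACGTG stood in 11 of the 39 promoter windows (28.2%) found for 33 genes of this list, beside 7.15% of all windows. By window the share was 25.0% in the list of MLX targets, 17.6% in the cofactor list and 12.5% in the turnover list. It was 8.33% in the lists of other E-box factors and of MYC-repressed genes. In the latter list the 1 window with CACGTG was that of Mxd4, a network member. A list chosen as MYC targets can hold more E-boxes by that choice, and nothing about these cells is read from its share. The proliferation markers given with Mxd3 moved in the same direction on each design, and their part in these counts was not tested.

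The list named for repression through MYC and its partner MIZ1 holds genes reported as MYC-repressed, and a part of MIZ1 was not checked for each. On the 430 arrays at 24 h it had 7 of 13 higher (53.8%, beside 26.0% of all genes). It had 3 lower there (23.1%, beside 26.1%), with a median of 0.40. Mxd4 is one of the 7. The hypoxia and differentiation gene Ndrg1 changed by 1.91, and the cyclin-dependent kinase inhibitors Cdkn1b and Cdkn2b by 1.35 and 1.13, while Cebpa, a driver of granulocytic differentiation, changed by -1.33 (limma adjusted p = 1.64e-07, 8.9e-07, 2.46e-05 and 5.55e-06). Cdkn1a, the p21 inhibitor often used as a readout of MYC repression, was not called on either design (-0.06 and 0.23, limma adjusted p = 0.499 and 0.427) and was chosen after its values were seen. As the mean of its probe sets Cdkn1b changed by 0.80 on the 430 arrays. The exon changes were -1.65 for Ndrg1, -0.76 for Cdkn1b, 0.59 for Cebpa and -0.15 for Cdkn2b, the last not called (limma adjusted p = 0.000263, 0.015, 0.0115 and 0.387). The exon call of Cebpa ended with the replicate block (0.0512) and that of Cdkn1b without 24 h array 2 (0.052). Among exon clusters 3 of 12 were higher (25.0%) and 4 lower (33.3%; median -0.11).

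The targets of MLX with MLXIP or MLXIPL had 3 of 7 higher (42.9%) and 2 lower (28.6%, near the 26.1% of all genes) on the 430 arrays at 24 h (median 0.18). Thrsp, a lipogenic ChREBP target, changed by -2.54 and the glycolytic regulator Pfkfb3 by -0.92, while Arrdc4, an arrestin known as a MondoA target, changed by 0.88 and the transcription factor Klf10 by 0.62 (limma adjusted p = 1.5e-08, 1.61e-05, 1.11e-05 and 4.28e-05). As means of their probe sets Thrsp and Arrdc4 changed less, by -1.46 and 0.38. Thrsp and Pfkfb3 changed by 2.24 and 0.94 on the exon arrays, Klf10 by -0.58, and Arrdc4 by -0.22 without a call (limma adjusted p = 0.126). The exon list had 2 of 7 higher and 2 lower (28.6% each).

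**Figure D4:**
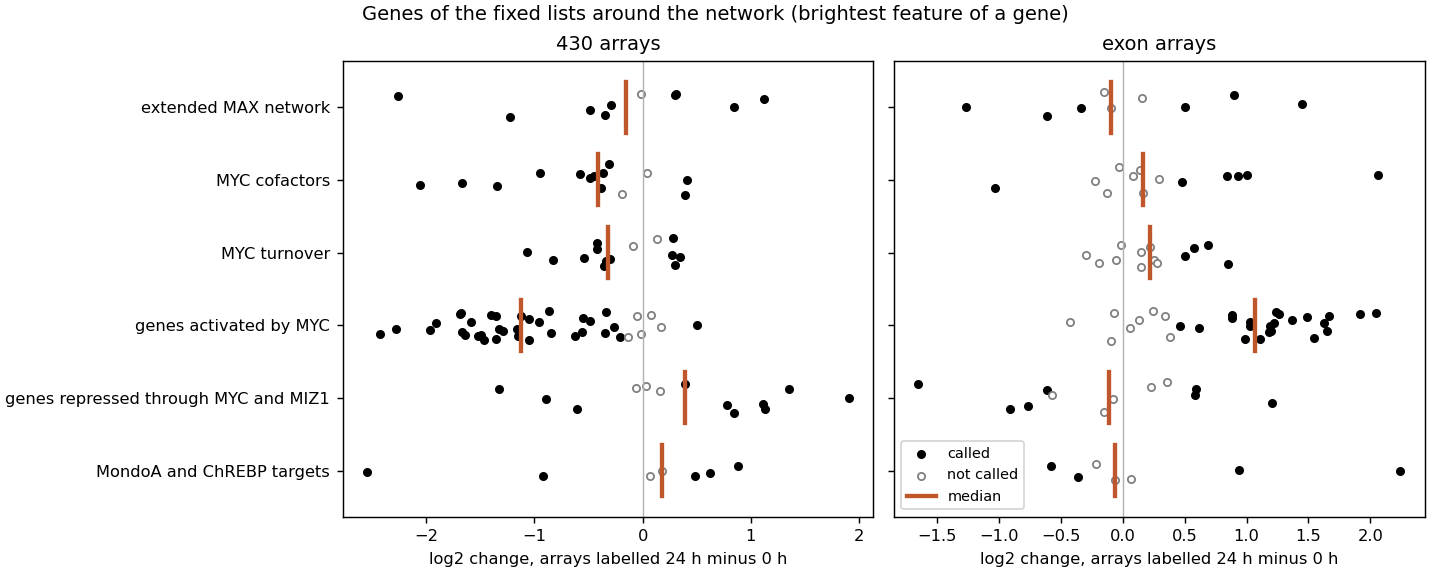
Log2 change (24 h minus 0 h as labelled) of each measured gene in the 6 lists, on the 430 arrays (left) and the exon arrays (right); filled points passed an adjusted p under 0.05 and the thick bar is the list's median. Genes activated by MYC lie mostly below 0 at left (median -1.12) and above 0 at right (median 1.07).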

How the data were processed

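RNA of PUER cells was measured on 6 Mouse Genome 430 2.0 and 6 Mouse Exon 1.0 ST arrays. The authors deposited log2 signals in a separate table for each design, made with Affymetrix Expression Console per the submitters' processing notes; how probe signals were summarized is not given. Those notes name build mm8 for the exon arrays. Gene symbols came from the platform annotations, updated through Entrez identifiers to RefSeq GRCm38.p6 (34741 of 34945 single-symbol probe sets and 14884 of 14939 clusters matched). Without 64 control probe sets, 45037 probe sets and 23238 clusters were tested with limma 3.58.1 in R 4.3.3 (lmFit, eBayes, two-sided, Benjamini-Hochberg over all features of a design), 24 h minus 0 h as labelled; the code was tested on simulated data. An exact permutation test of 3 against 3 arrays cannot go below p = 0.1. Precision is limited by the number of arrays. Without detection calls, changes of dim features may be understated. Array medians on the 430 arrays were 5.78 to 5.80 at 0 h and 5.85 to 5.87 at 24 h, without overlap. Those of the exon arrays were 5.39 to 5.42. Arrays of 1 group correlated at 0.985 or more. Deviations of same-numbered arrays correlated between -0.0548 and 0.132, and those of differently numbered arrays between -0.173 and 0.127. With 3 arrays a group these values cannot decide whether replicate numbers pair the arrays.

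The members and lists were chosen with earlier results of these data known. All members are named, and from each list up to 4 genes called on the 430 arrays with the largest change there. Alternative settings were a minimum log2 change of 1, gene means over features, leaving out each array, a block for the replicate number, a variance trend with robust fit, testing only features at or above the median level, centring on array medians, and quantile normalization.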

Additional observations from a re-analysis of the deposited data

Results flagged for a closer look

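In 6 network genes the groups did not overlap on either design and went opposite ways as labelled; the difference between designs was not tested, because the tables were made separately. Myc changed by -1.84 (430) and 1.05 (exon), and Mlx by -1.32 and 1.09. Mxd4 changed by 0.85 and -0.91, and Mnt by 0.14 and -0.41. Mxd3 changed by -0.48 and 0.30, and Mxd1 by -0.16 and 0.37. Of all genes on both designs, 38.5% also separated the groups on each and went opposite ways. Mycn (-0.96 and -0.15) and Max (-0.29 and -0.02) had the same sign as labelled, and would have opposite signs if the exon labels were exchanged.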

How the results depend on the processing

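Under the 13 settings 213 of the 244 recomputed changes of members kept their direction and call. The replicate block, the variance trend, the filter on feature level and the minimum change leave each log2 change as it is. They could alter the call but not the direction. The same holds for gene means of exon members, which have 1 cluster each. The changes that reversed sign were not called before or after. On the 430 arrays Mycl (0.02) became -0.0515 with quantile normalization and -0.0481 with array medians removed, and ranged from -0.0467 to 0.0649 when 1 array was left out, and Mxd1 (-0.16) became 0.0026 with quantile normalization. The exon change of Max (-0.02) ranged from -0.0981 to 0.0314 when 1 array was left out. Of the 27 list genes recomputed, Cdkn1a (430, -0.06) became 0.0331 and Ppp2r5a (exon, 0.15) -0.0911 with gene means, and Ppp2r5a ranged from -0.01995 to 0.303 when 1 array was left out. On the 430 arrays gene means shrank, without ending the call, Mycn from -0.96 to -0.22, Cdkn1b from 1.35 to 0.80, Thrsp from -2.54 to -1.46 and Arrdc4 from 0.88 to 0.38, and quantile normalization moved Max from -0.29 to -0.17. The 430 count of members called higher (1) became 2 with quantile normalization (Mnt added) and 2 with gene means (Mycl added), and 0 with a minimum log2 change of 1, when the count called lower (6) became 3. The exon count called lower (2) became 1 with the replicate block, where Mnt was not called (limma adjusted p = 0.0508), and 0 with the minimum change. The 430 count called lower became 5 with quantile normalization (Max lost). It became 7 with array medians removed, with features at or above the median level and with gene means (Mxd1 added). The exon count called higher (2) became 3 with features at or above the median level and with gene means (Mxd3 added). The change of Mxd3 was the same in both, and only the features or genes tested with it differed. Leaving out 1 array gave 430 counts called lower of 5 to 6 and exon counts called lower of 1 to 2. The 1 came without 0 h array 1, 2 or 3 or 24 h array 1 or 2. The replicate block gave 1 member higher and 6 lower on the 430 arrays and 2 higher on the exon arrays, as the fit without it did. Removing array medians moved the median 430 change of all genes from 0.06 to 0.00, and testing brighter features alone moved the exon median from 0.01 to 0.13. On the 430 arrays the calls of Max (-0.29) and Mxd3 (-0.48) ended when certain single arrays were left out. So did the exon call of Mnt (-0.41), whose change was then -0.44 to -0.36. With 3 arrays a group, a fit without 1 array also has less power, so these losses do not show that 1 array carried a call.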

Other observations

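The multiple probe sets of Mycn on the 430 arrays read very different levels, with 0 h means of 13.46, 5.89 and 5.36 log2 units, and they gave changes of -0.96, 0.09 and 0.21. The exon cluster of Mycn had a 0 h mean of 4.45, a level that cannot be compared with those of the 430 arrays. The cause of the differences among the probe sets was not tested.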
